A study of Mus musculus with 60 samples.

Results

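Serotonin receptor genes were followed in the prefrontal cortex of young mice with and without a mutant Grin2b allele, raised on vehicle, an antidepressant or a mood stabiliser. The 10 genes were Htr1a, Htr1b, Htr1d, Htr1f, Htr2a, Htr2c, Htr3a, Htr4, Htr5a and Htr7, taken by gene identifier through the GENCODE M21 annotation. All 10 were among the 18088 genes of the deposited table, and all 10 passed the filter on low values. RNA came from the prefrontal cortex of C57BL/6J mice on postnatal day 25. WT mice carried no mutant allele, and Het mice were heterozygous for Grin2b C456Y, a missense change in GluN2B, which is a subunit of NMDA glutamate receptors. The pups had vehicle, fluoxetine or lithium from postnatal day 3 to 24 in the milk of their mothers, so 2 genotypes and 3 treatments made 6 groups. Each group held 5 female and 5 male libraries, 60 in all. Nothing in the labels ties a replicate number to an animal or a litter, so the p-values measure only the spread between these samples, which may be technical.

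Serotonin reaches the prefrontal cortex in axons of the raphe nuclei of the brainstem. Its receptors fall into families by the signal they pass on. Receptors of the Htr1 family and Htr5a couple to Gi/o proteins and dampen cyclic AMP signalling, and Htr1a also opens GIRK potassium channels. Htr2 receptors couple to Gq/11 proteins and phospholipase C, and Htr4 and Htr7 couple to Gs and raise cyclic AMP. Htr3a is a subunit of a cation channel opened by serotonin. In cortex, pyramidal neurons are known for Htr1a and Htr2a, and a class of interneurons for Htr3a. Fluoxetine blocks the serotonin transporter and so raises serotonin outside the cells, while lithium is known to inhibit glycogen synthase kinase 3.

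The values are normalised read counts, the reads of a gene divided by 1 size factor per library. Libraries held 23901635 to 37769417 reads. Behind single values stood 1014 to 2644 reads for Htr2a, but 6 to 107 for Htr1d and 5 to 44 for Htr4, so the last pair are the least precise. Grin2b RNA does not check a missense allele. In vehicle its level was 18491.5 in Het and 17329.8 in WT mice, with a log2 fold of 0.091 and an adjusted p of 0.709. By limma Grin2b rose under fluoxetine in Het mice (0.32, adjusted p = 0.000105) and under lithium in WT mice (0.19, adjusted p = 0.0329). Under fluoxetine it was higher in Het than in WT mice (0.24, adjusted p = 0.00198). No other comparison passed for Grin2b. Cortical projection neuron markers were high in every library, with summed levels of 148770 to 256450 over 10 genes. Raphe neuron markers summed to 149 to 300 over 4 genes, while Fev, Slc6a4, Gata3 and En1 were not analysed here. Among Het fluoxetine libraries 9 of 10, all but male replicate 1, were low in 16 pseudogenes, as was WT vehicle female replicate 2. Those pseudogenes were picked as called over 4-fold lower in Het than WT mice under fluoxetine. Low values in most of that group thus follow from the choice. The 10 Het fluoxetine libraries also favoured genes of low GC content, with correlations between a gene's GC content and its deviation of -0.48 to -0.17 (median -0.39), against medians of 0.00 to 0.29 in the other groups. WT lithium male replicate 5, at -0.79, and WT lithium female replicate 5, with 13882.8 for the striatal gene Ppp1r1b against a mean of 1896.3 in WT vehicle, had large residuals.

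Per kb of the longest annotated transcript, Htr2a and Htr2c had the highest levels and Htr4 the lowest. In WT vehicle mice the level per kb was 260 ± 24.8 for Htr2a, 242 ± 41.6 for Htr2c, 129 ± 12.7 for Htr1a and 120 ± 9.55 for Htr5a (SD, n = 10). Htr3a followed at 94.6 ± 10.2 per kb, Htr1b at 63.4 ± 3.92 and Htr7 at 56.5 ± 8.73. Htr1f stood at 29.0 ± 8.57 per kb, Htr1d at 17.9 ± 6.79 and Htr4 at 3.55 ± 1.45. Between neighbours in this order the ranges over the libraries were apart for Htr2c and Htr1a, for Htr3a and Htr1b, and for Htr1d and Htr4. The other neighbours overlapped, and Htr2a lay above Htr2c in 6 of 10 libraries. Htr2c has several transcripts, and by the union of its exons it was at 127 per kb, close to Htr1a and Htr5a.

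**Figure D1:**
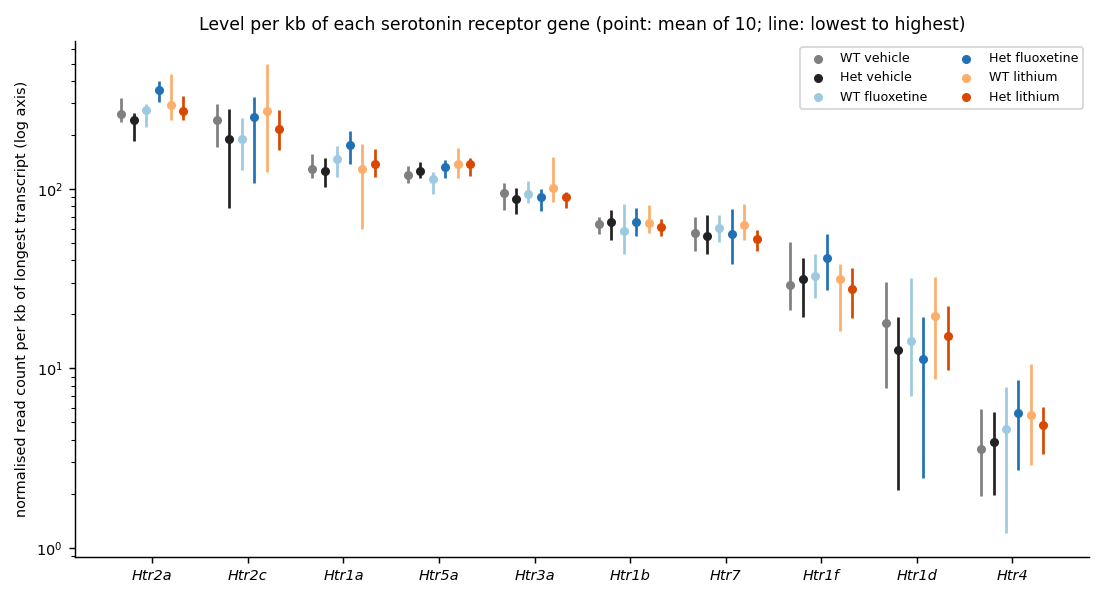
Normalised read count per kb of the longest transcript for each of the 10 genes, on a log axis, in the 6 groups. Points are means of 10 libraries and lines run from the lowest to the highest library; Htr2a leads in every group and Htr4 is last in every group.

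The order was much the same in all groups. By the longest transcript Htr2a was first, Htr2c the next and Htr4 last in each of the 6. Under lithium the mean of Htr5a lay above that of Htr1a, but in only 5 of 10 libraries of either genotype. Htr7 lay above Htr1b in 7 of 10 WT fluoxetine libraries, and its mean lay below by the union of exons. By that length Htr2a stayed first and Htr4 last, while Htr2c ranked between 2 in WT lithium and 4 in Het lithium mice. As a percentage of the mean, the SD ran from 5.38% for Htr3a in Het lithium mice to 47.5% for Htr4 in WT fluoxetine mice. Htr5a stayed at 5.77% to 11.9%, and Htr1d at 29.2% to 46.9%.

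The stretches of DNA upstream of Htr2a, Htr1a and Htr1f are shown because these 3 receptor genes are the ones that rose in Het fluoxetine mice, as described next. Each is the first 180 bases of the window that begins 250 bases before the RefSeq gene start (GRCm38.p6), and it ends before the GENCODE start as well. Capitals mark the GC box GGGCGG and AGAACA, which is only a part of the glucocorticoid receptor motif, on either strand.
Htr2a, chr14:74640624-74640803, plus strand: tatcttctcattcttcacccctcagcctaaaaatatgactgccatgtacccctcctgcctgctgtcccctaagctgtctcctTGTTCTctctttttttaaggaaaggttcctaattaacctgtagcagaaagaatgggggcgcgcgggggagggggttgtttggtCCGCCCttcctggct
Htr1a, chr13:105443443-105443622, plus strand: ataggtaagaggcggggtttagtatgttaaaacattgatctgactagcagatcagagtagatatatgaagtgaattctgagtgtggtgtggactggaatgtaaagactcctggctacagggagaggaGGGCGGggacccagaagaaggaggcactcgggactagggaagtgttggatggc
Htr1f, chr16:65105855-65106034, minus strand: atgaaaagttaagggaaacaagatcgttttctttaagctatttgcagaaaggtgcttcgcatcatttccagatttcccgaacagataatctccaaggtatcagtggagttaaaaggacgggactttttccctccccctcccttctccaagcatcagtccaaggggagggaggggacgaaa

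Htr2a held 1 GC box and 1 partial glucocorticoid receptor motif, Htr1a held 1 GC box, and Htr1f held neither. Of 32851 RefSeq windows of the same length, 21.1% held the GC box and 12.1% the partial glucocorticoid receptor motif, so both are common. The EGR motif GCGNGGGCG (2.43% of windows), the CRE core TGACG (10.7%) and the TATA motif TATAAA (8.37%) were also searched on both strands and were in none of the 3 windows. The windows leave out the bases nearest to the RefSeq start, so a TATA motif there could not be found. The EGR motif can overlap a GC box. Windows were found for 8 of the 10 genes, without Htr3a and Htr4. GC content of the windows of Htr2a, Htr1a and Htr1f was 51.1%, 48.9% and 45.6% against a median of 51.1% over all windows.

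Htr2a, the gene of the 5-HT2A receptor at which psychedelics and many antipsychotics act, differed the most clearly. It lies on chromosome 14 (GRCm38, 74640840 to 74709494, plus strand). Its normalised read counts in Het fluoxetine females were 2107, 1837, 2234, 2056 and 2240, and in males 1750, 1705, 2097, 1908 and 2072. Het vehicle females were at 1369, 1490, 1033, 1435 and 1313, and males at 1383, 1377, 1364, 1436 and 1301. Every Het fluoxetine library lay above every Het vehicle library. The means were 2001 ± 190 and 1350 ± 125 (SD, n = 10 each). By limma across all genes the log2 fold was 0.57 (SE 0.068), with an adjusted p of 8.83e-09. In bulk tissue, more RNA per cell and more cells of a type cannot be told apart.

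In WT mice Htr2a did not pass the test under fluoxetine. The lowest, median and highest WT fluoxetine libraries were at 1239, 1599 and 1671, and those of WT vehicle at 1322, 1447 and 1793, so the groups overlapped. The log2 fold was 0.089 (95% interval -0.047 to 0.22, adjusted p = 0.475). The fold in Het mice minus that in WT mice was itself 0.48 (SE 0.096, adjusted p = 0.000608). Between genotypes under fluoxetine, all 10 Het libraries again lay above all 10 WT libraries, at a log2 fold of 0.37 with an SE of 0.068 (adjusted p = 4.62e-05). In vehicle the genotypes overlapped, at a log2 fold of -0.11 (95% interval -0.25 to 0.023, adjusted p = 0.626). The 3 called comparisons share the Het fluoxetine libraries, so they are not independent of each other.

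**Figure D2:**
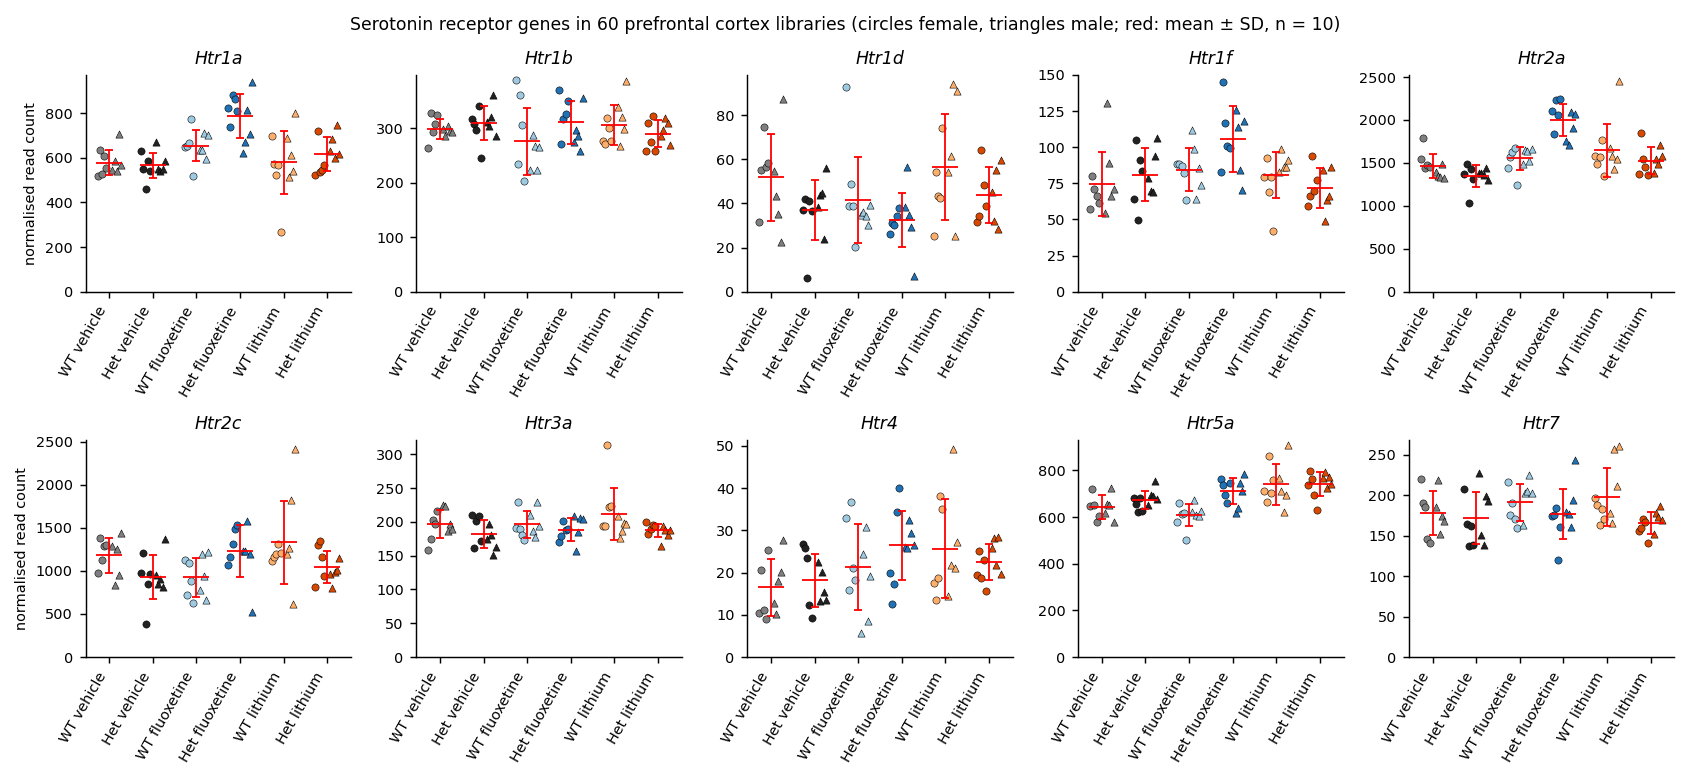
Normalised read count of each gene in the 60 libraries, by group, with circles for females, triangles for males and red marks for mean ± SD over 10 libraries. The Htr2a values of the Het fluoxetine libraries, 1705 to 2240, lie above every Het vehicle and every WT fluoxetine library, and Htr1d and Htr4 scatter widely in every group.

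Htr2a also moved with the GC trend of the libraries. Outside the Het fluoxetine group its highest values were 2458 in WT lithium male replicate 5, 1843 in Het lithium female replicate 2 and 1793 in WT vehicle female replicate 2. The second of these has a GC correlation of 0.08. The first and the last have the lowest GC correlations of all 60 libraries, -0.79 and -0.55, and the last is also the WT library that is low in the pseudogenes. Het fluoxetine male replicate 1, the library of its group that is not low in them, was at 1750, above every Het vehicle library. After each of the 12 genotype, drug and sex means was subtracted, Htr2a correlated with the GC trend at r = -0.49 and rho = -0.38 over 60 libraries (permutation p = 0.00015 and 0.0031, adjusted over 10 genes to 0.0015 and 0.031). Without those 2 libraries r was -0.31. None of the other 9 genes passed this test, with r from -0.27 for Htr5a to 0.16 for Htr3a.

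With GC content corrected, the Htr2a log2 fold of fluoxetine in Het mice was 0.41 (SE 0.062, adjusted p = 2.03e-06) and the interaction 0.33, both still called. A term for the 10 libraries low in the pseudogenes brought the fold to 0.38 (SE 0.12, adjusted p = 0.253), which ended the call. With it the genotype fold under fluoxetine was 0.17 and the interaction 0.27, neither called. A term for the 11 libraries in which the pseudogene Rps6-ps4 had 0 reads left the drug fold at 0.45 (adjusted p = 0.0207) and again ended the other calls, at 0.25 and 0.35. The 16 pseudogenes had been picked as low in Het against WT mice under fluoxetine. Since 9 of the 10 low libraries are Het fluoxetine libraries, the drug group and the low libraries can hardly be told apart.

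**Figure D3:**
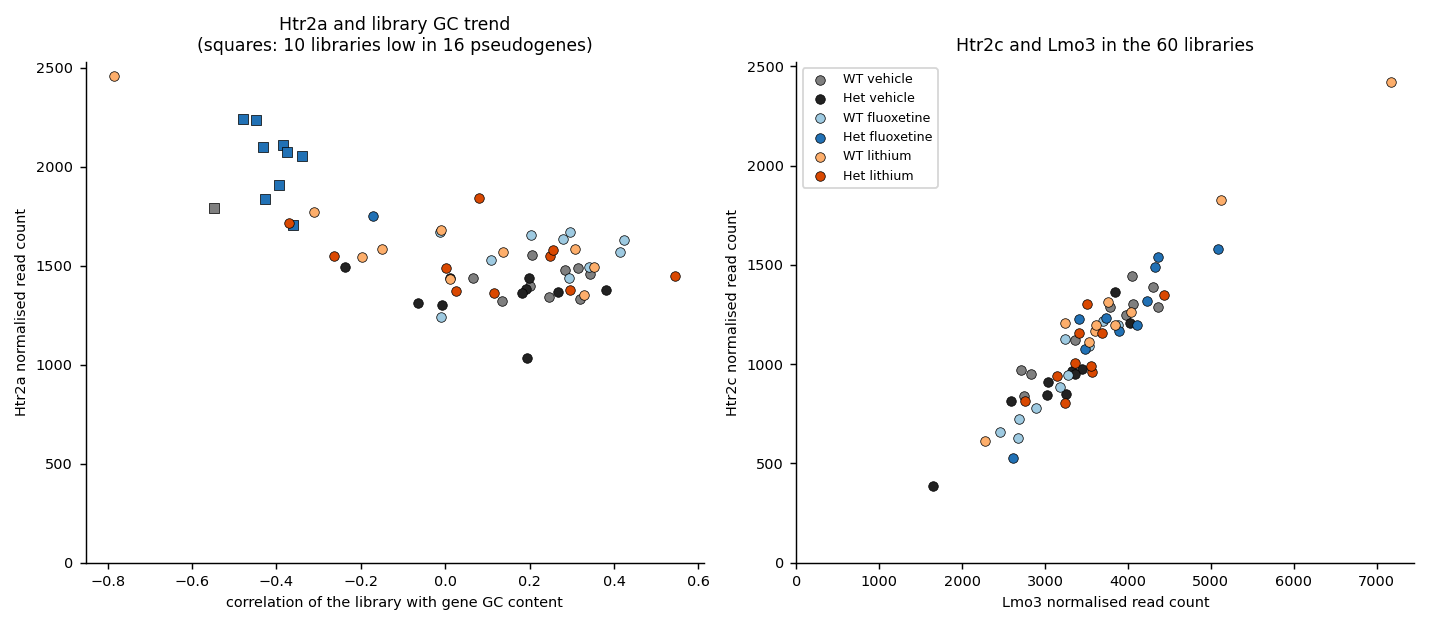
Left, Htr2a normalised read count against the correlation of each library with gene GC content, squares marking the 10 libraries low in 16 pseudogenes; right, Htr2c against Lmo3 normalised read counts, with colours for the 6 groups. The highest Htr2a value, 2458, belongs to the library with the lowest GC correlation, -0.79, and Htr2c follows Lmo3 from 384 to 2421 across all groups.

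Htr1a, the gene of the receptor through which serotonin inhibits pyramidal neurons and raphe neurons alike, rose beside Htr2a in Het fluoxetine mice. It lies on chromosome 13 (105443639 to 105448122, plus strand). Het fluoxetine females were at 823, 740, 883, 863 and 809, and males at 621, 672, 816, 706 and 940. Het vehicle females were at 631, 551, 461, 584 and 543, and males at 670, 552, 543, 551 and 584. All 10 treated libraries lay above the vehicle mean, and the lowest of them, male 1, was the one that reached into the vehicle range. The means of 787 ± 100.3 and 567 ± 56.2 differed by 0.47 on the log2 scale, with an SE of 0.096 and an adjusted p of 0.000149.

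In WT mice Htr1a was at 655 ± 68.9 under fluoxetine and 579 ± 57.1 in vehicle, a log2 fold of 0.18 that did not pass (95% interval -0.017 to 0.37, adjusted p = 0.283). Htr1a differed between the genotypes under fluoxetine by 0.26 (SE 0.096, adjusted p = 0.026), and 9 of 10 Het libraries exceeded the WT mean. That call was lost without Het fluoxetine male replicate 5 (0.22) or WT fluoxetine female replicate 5 (0.22), at adjusted p up to 0.0692. The difference between the drug folds of Htr1a, 0.29, did not pass (SE 0.14, adjusted p = 0.109). The fold in Het mice was 0.46 with GC content corrected (adjusted p = 0.000744). With the terms for low libraries it was 0.23 and 0.26, neither called, and the genotype fold was 0.024 and 0.050. GC correction kept the genotype fold at 0.27 but ended its call (adjusted p = 0.0600).

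Htr1f, which encodes a Gi/o-coupled receptor known as the target of the migraine drug lasmiditan, was the other gene that rose in Het fluoxetine mice. It spans 64924729 to 65105854 on the minus strand of chromosome 16. Het fluoxetine females were at 82.9, 145, 117, 101 and 99.8 and males at 126, 114, 84.0, 70.4 and 118. Het vehicle libraries had a lowest, median and highest value of 49.9, 80.9 and 107. The groups overlapped, with 9 of 10 treated libraries above the vehicle mean. The log2 fold was 0.38, with an SE of 0.14 and an adjusted p of 0.025. The call was lost without Het fluoxetine female replicate 2 (0.33) or male replicate 1 (0.34), or without Het vehicle female replicate 1 (0.35) or 3 (0.31), at adjusted p up to 0.0778. It was also lost with GC content corrected, at 0.20 (adjusted p = 0.326), and with the terms for low libraries, at 0.42 and 0.45.

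Counted together, 3 of the 10 receptor genes were called between fluoxetine and vehicle in Het mice, all higher, where 39.0% of the 17810 genes tested were called and 19.1% were called higher. The median log2 fold of the 10 was 0.23, with 9 above 0, against 0.0048 over all genes tested. Between Het and WT mice under fluoxetine 3 were called, again all higher, where 39.5% of genes were called and 19.6% called higher. The median there was 0.24. By the share called in either direction, the receptor genes did not exceed all genes. In the interaction of genotype and fluoxetine 2 were called higher, Htr2a and Htr2c, where 24.0% of genes were called and 11.9% called higher.

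**Figure D4:**
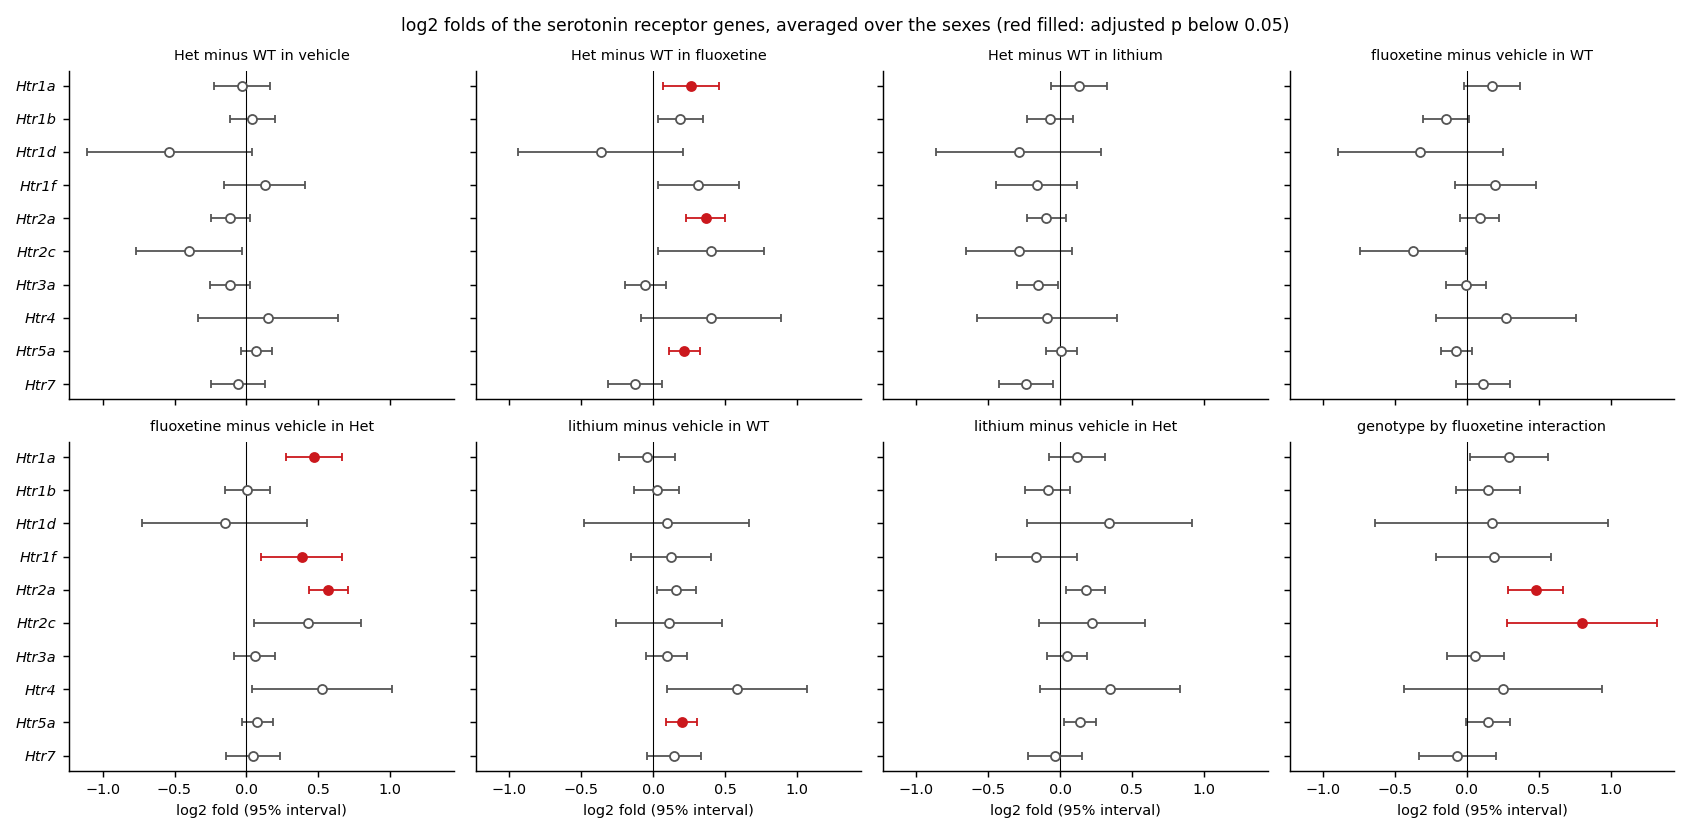
log2 folds with 95% intervals for the 10 genes in 8 comparisons averaged over the sexes, with called genes in filled red. Calls appear in the comparisons that hold the Het fluoxetine libraries, apart from Htr5a in WT lithium mice.

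Htr2c, the gene of the 5-HT2C receptor, whose RNA is known for editing, had the largest difference between the genotypes' responses to fluoxetine. It lies on the X chromosome (146962513 to 147197277, plus strand) and hosts microRNA genes that were not analysed here. Its lowest, median and highest values in vehicle were 837, 1268 and 1444 in WT mice and 384, 930 and 1366 in Het mice. Under fluoxetine they were 625, 914 and 1217 in WT mice and 527, 1228 and 1581 in Het mice. The median under the drug was thus lower in WT mice and higher in Het mice, with wide overlap in each pair. The log2 folds were -0.38 in WT (95% interval -0.74 to -0.007, adjusted p = 0.22) and 0.42 in Het mice (95% interval 0.056 to 0.79, adjusted p = 0.0611), and neither passed. Their difference of 0.80 did (SE 0.26, adjusted p = 0.021).

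The single folds of Htr2c depended on a few libraries. Het fluoxetine male replicate 5, at 527, was far below the other 9 of its group at 1074 to 1581. Without it the fluoxetine fold in Het mice was 0.55 (adjusted p = 0.0106) and the genotype fold under fluoxetine 0.53 (adjusted p = 0.0132), so both became called. Leaving out Het vehicle female replicate 2 or male replicate 5 gave 0.49 and 0.49 and also a call in Het mice. The interaction kept its call in 40 of 40 fits without 1 library, at 0.66 to 0.93, but lost it with GC content corrected (0.67) and with the terms for low libraries (0.78 and 0.85).

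Htr2c varied together with Lmo3, a LIM-domain transcription regulator gene. Once the 12 group means were subtracted, Lmo3 was the gene most like Htr2c of 12789 compared, with r = 0.94 and rho = 0.92 over 60 libraries. Ndst4 (0.87) and Bcl11b (0.83), a transcription factor gene of deep-layer projection neurons and striatal neurons, came after it. WT lithium male replicate 5 had 2421 of Htr2c, 7178.5 of Lmo3 and 3448.7 of Bcl11b. Het vehicle female replicate 3 had 384, 1642.2 and 1421.1, and Het fluoxetine male replicate 5 had 527, 2618.7 and 1555.3. Libraries high in Htr2c were thus high in Lmo3 whatever their group. Lmo3 itself had an interaction of genotype and fluoxetine of 0.52 (SE 0.19, adjusted p = 0.0417), and Bcl11b 0.24 (adjusted p = 0.203). Whether the make-up of the dissected tissue differed was not tested.

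Htr1d, a Gi/o-coupled receptor gene of low level here and the target of triptans, followed Htr2c from library to library. It spans 136423524 to 136444398 on the plus strand of chromosome 4. The residuals of the pair correlated at r = 0.80 and rho = 0.72 (permutation p = 1e-05 each, the smallest that 100000 permutations give, adjusted p = 0.00015), and at r = 0.70 without the 2 farthest libraries. The lowest Htr1d values of all 60 libraries were 6.11 in Het vehicle female replicate 3 and 7.13 in Het fluoxetine male replicate 5, the libraries that are also lowest in Htr2c. Its means ran from 32.6 ± 12.2 in Het fluoxetine to 56.6 ± 24.2 in WT lithium mice. No comparison called it. Its nearest genes were Filip1 (r = 0.83), Bcl11b (0.81) and Klhl13 (0.80).

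Htr5a, a Gi/o-coupled receptor gene that is largely limited to the nervous system, was the receptor gene that rose under lithium. It lies on chromosome 5 (27842149 to 27855088, plus strand). WT lithium females were at 711, 663, 860, 704 and 760 and males at 767, 712, 621, 693 and 910. WT vehicle libraries had a lowest, median and highest value of 578, 649 and 725. The groups overlapped, and 9 of 10 lithium libraries lay above the vehicle mean. The means of 740 ± 88.0 and 643 ± 51.3 lay 0.20 apart on the log2 scale (SE 0.054, adjusted p = 0.00715), in a comparison that called 19.2% of all genes and 9.34% higher. The call held in 20 of 20 fits without 1 library and was lost when the groups were fitted alone, at the same fold (adjusted p = 0.0681).

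Het lithium mice had a like mean of Htr5a, 742 ± 49.8 against 673 ± 38.9 in Het vehicle, but the log2 fold of 0.14 did not pass (95% interval 0.030 to 0.25, adjusted p = 0.214). The lithium folds of the genotypes differed by -0.06 (SE 0.076, adjusted p = 0.824). Between genotypes under fluoxetine Htr5a was higher in Het mice, 710 ± 55.5 against 611 ± 46.8 in WT, 0.22 apart on the log2 scale (SE 0.054, adjusted p = 0.00116). The WT mean of the same sex was exceeded in 9 of 10 Het libraries. WT fluoxetine mice had the lowest mean Htr5a of the 6 groups, and the fold from vehicle to fluoxetine did not pass in either genotype (-0.07 in WT and 0.07 in Het mice). With GC content corrected the genotype fold was 0.14, and with the term for low libraries 0.021, neither called.

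Lithium called no other receptor gene. In WT mice Htr4 (0.58, adjusted p = 0.0805) and Htr2a (0.16, adjusted p = 0.0853) came closest. In Het mice none of the 10 was called by limma or edgeR, where 0.983% of genes were called and 2 receptor genes had an unadjusted p under 0.05: Htr2a at 0.18 (adjusted p = 0.202) and Htr5a. The interaction of genotype and lithium called none by either tool, where 0.0674% of genes were called and no receptor gene had an unadjusted p under 0.05.

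Htr1b, the gene of a receptor that limits transmitter release from axon terminals, was called in no comparison. Its means ran from 276 ± 61.1 in WT fluoxetine to 311 ± 39.0 in Het fluoxetine mice. The log2 fold between these 2 groups, 0.19, just missed the threshold (SE 0.079, adjusted p = 0.0503). It passed in 9 of the 20 fits without 1 library and without the 3 libraries of largest residuals. Htr1b lies on the minus strand of chromosome 9 (81628291 to 81633828), and its exons overlap those of the antisense gene D430036J16Rik. The kit keeps the strand, but its use in counting is not stated in what was read here, so reads of the pair may be mixed and the Htr1b values are uncertain.

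Htr3a, the ion channel subunit, and Htr7, a Gs-coupled receptor gene, were called in no comparison. Htr3a (chromosome 9, 48899213 to 48911099, minus strand) had group means of 182 ± 21.1 to 211 ± 38.8, the upper one raised by WT lithium female replicate 3 at 313. Htr7 (chromosome 19, 35958734 to 36057507, minus strand) had means of 166 ± 13.4 in Het lithium to 197 ± 35.7 in WT lithium mice. These 2 were the receptor genes with an unadjusted p under 0.05 between the genotypes under lithium, at log2 folds of -0.24 for Htr7 (adjusted p = 0.317) and -0.16 for Htr3a (adjusted p = 0.386). None of the 10 was called there by limma or edgeR, where 0.0281% of genes were called.

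Htr4, a Gs-coupled receptor gene of the lowest level, lies on chromosome 18. Its mean was 16.6 ± 6.74 in WT vehicle and 18.2 ± 6.24 in Het vehicle mice, and 21.4 to 26.4 in the 4 drug groups. All 4 drug folds were positive, at 0.27, 0.53, 0.58 and 0.35, but none passed (adjusted p = 0.0795 or more). The 2 drugs share the vehicle libraries within each genotype. At 5 to 44 reads per library the 95% intervals were wide, such as 0.039 to 1.01 for fluoxetine in Het mice.

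In vehicle no receptor gene differed between the genotypes by limma or edgeR, where 0.59% of genes were called. Htr2c had an unadjusted p under 0.05, at -0.40 on the log2 scale with an SE of 0.18 and an adjusted p of 0.453. The WT mean of the same sex was exceeded in 1 of 10 Het libraries. Htr1d was at -0.54 (SE 0.29, adjusted p = 0.555). In WT mice fluoxetine called no receptor gene by either tool, where 8.43% of genes were called, and Htr2c had an unadjusted p under 0.05.

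No receptor gene was called for sex or for its interactions. Females minus males over all groups called none of the 10 by limma or edgeR, where 0.107% of genes were called. Htr7 had an unadjusted p under 0.05, at -0.15 (SE 0.054, adjusted p = 0.972). The 7 interactions of sex called none by either tool, where 9.64% of genes were called for lithium in WT mice and 0.0% in each of the other 6. For lithium in WT mice 2 receptor genes had an unadjusted p under 0.05, Htr3a at 0.33 (adjusted p = 0.106) and Htr2a at -0.30 (adjusted p = 0.126), and those groups hold WT lithium female replicate 3 and male replicate 5. In Het mice Htr2a was at 2095 ± 165 in females and 1906 ± 179 in males under fluoxetine, and at 1328 ± 178 and 1372 ± 48.3 in vehicle (n = 5 each). The sex interaction of that response was 0.20 (SE 0.14, adjusted p = 0.844).

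**Figure D5:**
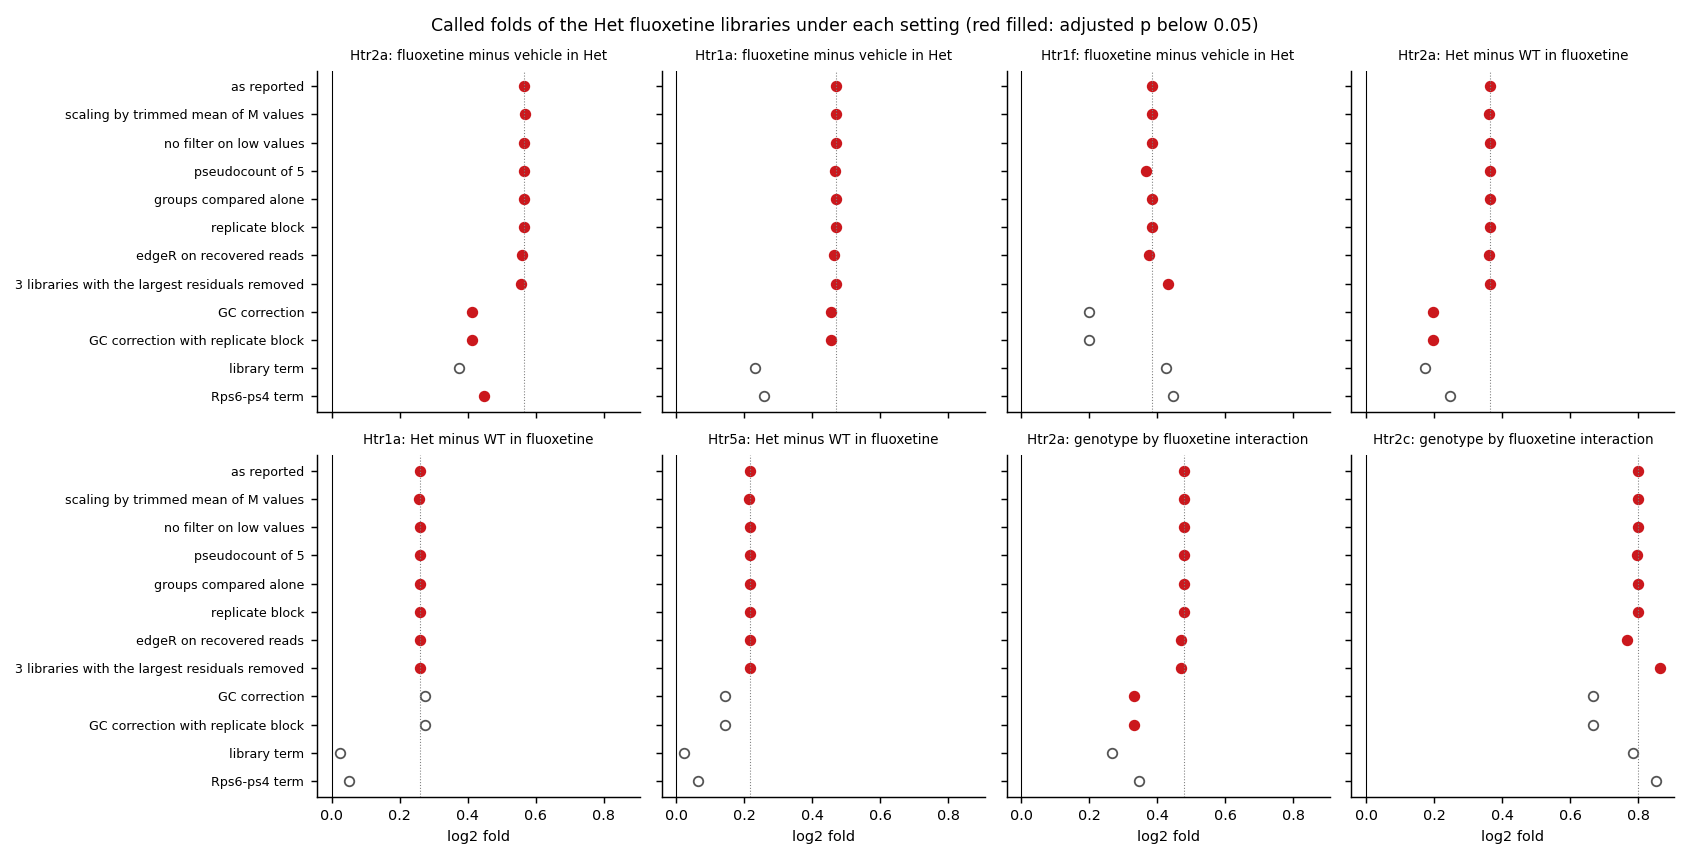
log2 folds of the 8 called results that involve Het fluoxetine libraries, as reported and under 11 other settings, with called values in filled red. The folds hardly move under scaling, filter, pseudocount, replicate block or edgeR, while the GC correction ends 4 of the 8 calls, the term for the 10 low libraries all 8, and the Rps6-ps4 term 7.

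Within groups, some receptor genes varied together. Of the 45 pairs, 10 had correlated residuals at an adjusted p under 0.05, and 9 of these were positive. After Htr1d with Htr2c the closest were Htr1a with Htr2a (r = 0.67, rho = 0.70) and Htr2a with Htr5a (r = 0.66, rho = 0.60), each with a permutation p of 1e-05 and an adjusted p of 0.00015. They stood at 0.74 and 0.61 without the 2 farthest libraries and at 0.64 and 0.69 after GC correction. The one negative pair was Htr1f with Htr4 (r = -0.35, rho = -0.32, permutation p = 0.0062, adjusted p = 0.028), at -0.28 without the 2 farthest. Libraries share depth and dissection, so these are descriptions. The permutations did not allow for the subtracted group means, so pairs near the threshold, such as this last one, are uncertain.

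The genes most like each receptor gene across the residuals of the 60 libraries differed in how close they came. Htr2a was nearest to Akap6 (r = 0.89), an anchoring protein gene of protein kinase A, and to Pja2 and Serinc1 (0.88 each). Htr1a was nearest to Inpp4a, Gpr26 and Nwd2 (0.81 each), but only at 0.66, 0.67 and 0.65 without the 2 farthest libraries. Htr5a was nearest to Pcyox1 (0.79), Krt222 (0.78) and Klhdc2 (0.78). Htr1b was nearest to Akap5 (0.68), Htr1f to Epha3 (0.67), Htr4 to Caln1 (0.61), Htr7 to Gucy1a1 (0.60) and Htr3a to Ehd3 (0.53).

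Other genes of the serotonin system were read from lists. Of the other receptor genes, Htr6, which encodes a Gs-coupled receptor, went the opposite way from Htr2a. It was at 88.7 ± 10.9 in Het fluoxetine, 124 ± 20.1 in Het vehicle and 123 ± 28.8 in WT fluoxetine mice. Under fluoxetine in Het mice Htr6 fell by 0.47 (log2, SE 0.12, adjusted p = 0.00161) and was lower by a log2 fold of -0.44 against WT (adjusted p = 0.00262). Each of these comparisons called 19.9% of all genes lower. Htr6 was not read with GC content corrected or with the terms for low libraries. Htr5b was called in neither comparison. Htr2b and Htr3b were not analysed here.

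Of 12 genes for serotonin synthesis, storage, transport and breakdown, fluoxetine in Het mice called 2 higher and 2 lower, with a median log2 fold of 0.04. That comparison called 19.1% of all genes higher and 19.9% lower. Maoa, the enzyme that breaks serotonin down, rose by a log2 fold of 0.17 (adjusted p = 0.00453) and Pts, of cofactor synthesis, by 0.21 (adjusted p = 0.0151). Aldh2 (-0.25) and the monoamine transporter gene Slc29a4 (-0.18) fell. Tph2, of serotonin synthesis, was called in no comparison. In WT lithium mice Gch1 (-0.49, adjusted p = 0.00252) and Aldh2 (-0.21, adjusted p = 0.00881) fell, where 9.87% of genes were called lower.

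The signalling partners of the receptors moved in both directions in Het fluoxetine mice, where 19.1% of all genes were called higher and 19.9% lower. Of 15 Gq/11 and phospholipase C genes, 8 rose and 3 fell, with a list median log2 fold of 0.15. Dgkb (0.34), Plcb1 (0.28), Prkca (0.36) and Prkce (0.31) were among those that rose, and Gna11 (-0.14) and Plcb3 (-0.14) were among those that fell. Of 15 Gi/o and GIRK channel genes (median -0.01), 4 rose and 4 fell: the channel genes Kcnj6 (0.34) and Kcnj3 (0.29), Gnai1 (0.29) and Rgs7 (0.16) rose, and Gnai2 (-0.29), Gnb2 (-0.21), Gnaz (-0.20) and Gnao1 (-0.08) fell. Of 20 Gs and adenylyl cyclase genes (median 0.08) 3 rose and 3 fell, among them Pde4b (0.16) and Adcy6 (-0.23).

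Of 20 receptor partners (median -0.02), 4 rose and 5 fell in the same comparison. Fkbp5 rose by 0.53 (adjusted p = 1.4e-06), Ric3, a chaperone of ligand-gated channels, by 0.17, Mpdz, a scaffold that binds Htr2c, by 0.17 and Tmem35a by 0.20. Grk2 (-0.23), Grm2 (-0.32), Dlg4 (-0.19) and Arrb2 (-0.18) were among those that fell. Fkbp5, a stress-responsive chaperone gene, also rose under fluoxetine in WT mice (0.43, adjusted p = 0.000207) and under lithium in WT (0.47, adjusted p = 5.95e-05) and Het mice (0.33, adjusted p = 0.0287). All these counts read against 39.0% of genes called in Het fluoxetine mice, 19.1% higher and 19.9% lower. That group includes the 9 libraries low in pseudogenes.

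Lists of cell type and region markers were read beside these results. Fluoxetine in Het mice called 39.0% of all genes tested, 19.1% higher and 19.9% lower, and the counts below read against these shares. Of the 10 cortical projection neuron markers none was called higher and 5 lower, such as Rtn4rl2 (-0.45) and Camk2a (-0.24). Their summed range was 148770 to 207616 against 166552 to 256450 in Het vehicle mice. Of 9 upper layer markers 3 rose and none fell, of 10 endothelial markers none rose and 4 fell, and of 10 astrocyte markers none rose and 1 fell. Of 9 layer 5 markers 2 rose and 1 fell, and of 13 markers of the interneuron class that holds Htr3a 1 rose and 2 fell. Their summed ranges, 10907 to 12781 and 12897 to 22417, overlapped those of Het vehicle mice, 9486 to 12844 and 12631 to 21324. Of 6 claustrum markers 3 rose, Gng2 (0.20), Synpr (0.56) and Oprk1 (0.44), and Ntng2 (-0.27) fell. Their sum was highest in Het fluoxetine mice of the 6 groups, at 14820 ± 1970 against 12534 ± 1665 in Het vehicle and 11796 ± 783 in WT fluoxetine mice (SD, n = 10). Of 10 thalamus and habenula markers 3 rose and 3 fell, and their sum was also highest there, at 4653 ± 465 against 4114 ± 271 and 4201 ± 326. Striatum markers called none in that comparison, and their sums were 7652 to 16619 and 6040 to 12823. The striatal sums reached 42087 in WT lithium female replicate 5, the library with the lowest Htr1a of all 60 at 270, and the highest sum of WT fluoxetine mice was 33794. The 11 choroid plexus markers summed to 227 to 480 in Het fluoxetine and 159 to 461 in Het vehicle mice. Their highest sums were 528 in WT vehicle, 1313 in WT fluoxetine and 2680 in WT lithium mice. The part of these markers in the receptor results was not tested.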

How the data were processed

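The authors deposited 1 signal value per gene and library, which the values show to be reads divided by a size factor. Per the submitters' processing notes, Salmon 0.11.2, DESeq2 1.19.11, R 3.6.0 and GRCm38 were used, with no roles given, on stranded mRNA libraries per the labels. Values were whole multiples of 1 step per library, so reads were recovered (100% of values whole within 0.001). Here limma 3.58.1 in R 4.3.3, with trend and robust settings, was fitted to log2(value + 1) of the 17810 genes that reached 10 in 5 or more libraries, over 12 groups, which left 48 residual degrees of freedom. Folds are on that scale, which understates changes of low genes. A call is an adjusted p (Benjamini-Hochberg, per contrast, 17 contrasts) under 0.05. edgeR 4.0.16 on recovered reads (17776 genes) was an alternative, since the values are not raw counts. The fit was tested on simulated data.

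The members, the 22 gene lists and the alternatives were chosen with earlier results of these data known. Each receptor gene is named in each result. Lists are given as counts with at most 4 called genes per direction. Likeness used genes with a mean of at least 50. GC correction subtracted a loess curve (span 0.3) on GC content of the longest transcript. The 16 pseudogenes were those called over 4-fold lower in Het than WT mice under fluoxetine. Permutation tests drew 100000 permutations of residuals and are two-sided. None of the 120 pairs of libraries within a group agreed within sampling noise.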

Additional observations from a re-analysis of the deposited data

Results flagged for a closer look

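In 7 of 120 sets of 5 libraries of 1 gene, genotype, drug and sex, 1 library stood far from the other 4 by Dixon's test. Chance alone flags about 1 in 20 such sets. Htr2a was 2458 in WT lithium male replicate 5, with the others at 1433 to 1679, and this library also has the lowest GC correlation. Htr2c was 1366 in Het vehicle male replicate 5, with the others at 812 to 951, and Htr1d was 6.11 in Het vehicle female replicate 3, with the others at 36.6 to 41.8. Htr1a was 718 in Het lithium female replicate 2, above 525 to 569, and 705 in WT vehicle male replicate 4, above 541 to 584. Htr1f was 63.4 in WT fluoxetine female replicate 5, below 82.4 to 88.6, and Htr3a was 313 in WT lithium female replicate 3, above 193 to 224.

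The response to fluoxetine differed between the genotypes for Htr2a, by 0.48 on the log2 scale (limma adjusted p = 0.000608), and for Htr2c, by 0.80 (adjusted p = 0.021). Htr2a rose in Het mice and did not pass in WT mice. Htr2c passed in neither genotype on its own.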

How the results depend on the processing

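The 9 calls kept their direction under all 11 other settings and with each library left out. The count of called receptor genes for Het minus WT in fluoxetine, 3 as reported, was 1 with GC correction (with or without the replicate block), 0 with the library term (10 libraries low in pseudogenes), 0 with the Rps6-ps4 term, and 2 to 5 with 1 library left out (5 without Het fluoxetine male replicate 4, where Htr1b and Htr1f joined), and 4 without the 3 libraries of largest residuals (Htr1b joined). For fluoxetine in Het mice, 3 as reported, it was 2 with GC correction (with or without the replicate block; Htr1f lost), 4 with the groups fitted alone (Htr4 joined), 4 without the 3 libraries of largest residuals (Htr2c joined), 0 with the library term, 1 with the Rps6-ps4 term and 2 to 4 with 1 library left out. For lithium in WT mice, 1 as reported, it was 0 with the groups fitted alone, 2 with the library term (Htr2a joined) and 1 to 2 with 1 library left out. The 2 came without WT lithium female replicate 2, male 1 or male 3, or WT vehicle female 2, female 5 or male 5, when Htr4 or Htr2a joined. For the interaction of genotype and fluoxetine, 2 as reported, it was 1 with GC correction (with or without the replicate block), 0 with the library term, 0 with the Rps6-ps4 term and 2 in every fit without 1 library. The cause was not tested. Htr1a joined this interaction with the groups fitted alone and without the 3 libraries of largest residuals (Het vehicle male 5, WT lithium female 5 and WT lithium male 5). Replicate numbers do not pair the samples: same-numbered libraries correlated over 0.1 in 112 of 330 pairs (median 0.010, own number best in 73). The replicate block kept 3, 3, 1 and 2 calls in these 4 comparisons and changed no other. Comparisons with 0 calls stayed at 0 in every setting run. Depth limits Htr4 and Htr1d the most.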
